A study of Mus musculus with 19 samples.

Results

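Mitochondrial genome transcripts were taken as every gene symbol starting with mt- in the 4 deposited FPKM tables (fragments per kilobase of gene, scaled to the mapped total of the library). There were 37 of them among the 56707 symbols that each table gives on 1 line, and no mt- symbol had several lines. They comprised 13 protein genes, 2 rRNA genes and 22 tRNA genes, which are all 37 genes that GENCODE M21 annotates on the mitochondrial chromosome of GRCm38. The count table held 10 of them among its 14443 symbols. The tissue was the locus coeruleus of mice, a noradrenergic nucleus of the brainstem that promotes wakefulness, and the study asked what calcineurin does there in sleep homeostasis. CnB1KO_SD6 (n = 5) and CnB1KO_S6 (n = 5) were ABC-CnB1KO mice, in which CnB1 is knocked out, the regulatory part of calcineurin, a phosphatase that calcium switches on, after 6 h of sleep deprivation (SD6) or normal sleep (S6). WT_SD6 (n = 5) and WT_S6 (n = 4) were ABC-Ctrl mice after the same treatments. Per the labels, brains were taken 4 weeks after injection of AAV-hSyn-Cre, a virus that carries Cre recombinase under a neuronal promoter, so the deletion concerns the neurons that the virus reached. The sources used here do not say what ABC stands for, nor the age, strain and maternal line of each group.

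Libraries were made from poly(A) RNA without strand information, and total counts ran from 3887298 in library 13 (CnB1KO_S6) to 7903253 in library 10 (WT_SD6). Libraries are called by the number in their column header. Ppp3r1, which encodes CnB1, had 54.8, 47.5, 50.2, 50.1 and 53.4 FPKM in CnB1KO_SD6 and 48.2, 47.7, 55.4, 46.9 and 46.7 FPKM in CnB1KO_S6, against 62.3, 58.4, 57.9, 63.9 and 54.4 FPKM in WT_SD6 and 63, 64.2, 60 and 64.4 FPKM in WT_S6. It was lower in CnB1KO than in WT averaged over sleep states (log2 difference −0.29, limma adjusted p = 0.00239) and after sleep (−0.36, adjusted p = 0.0166), but did not pass after deprivation alone (−0.21, adjusted p = 0.184). The noradrenergic markers Dbh, which makes noradrenaline, and Th, the first enzyme of that pathway, were present in all 19 libraries, at 37.6 to 93.0 and 26.8 to 71.3 FPKM. In tissue of mixed cells, fewer cells of a type and less RNA per cell cannot be told apart.

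The mitochondrial genome is a small circle that is transcribed from both strands as long precursors. Most mRNAs and rRNAs in these precursors are separated by tRNAs, and excision of the tRNAs releases them. The protein genes encode core subunits of respiratory complexes I, III and IV and of ATP synthase, the rRNAs and tRNAs serve the mitochondrial ribosome, and mature mt-mRNAs receive short poly(A) tails. Stretches of mitochondrial sequence have also been copied into nuclear chromosomes, where most are annotated as pseudogenes.

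One such copy, on chromosome 1, spans a stretch that holds 13 of the 37 genes in whole or part. On GRCm38, 7 annotated pseudogenes on chromosome 1, minus strand, from 24611535 to 24616188, match chrM:6390-11042, a stretch of 4653 bases. By position, 11 mt- genes lie entirely in that stretch and 2 (mt-Co1 and mt-Nd4) lie in part, while 24 lie outside it, and a gene is called inside or outside the copy on this basis. Outside refers to this copy alone. mt-Nd2, mt-Nd5, mt-Nd6 and mt-Cytb match other annotated nuclear pseudogenes at 92.4 to 96.7% identity, mt-Nd2 and mt-Nd5 over part of their length. Sequence was compared for 8 of the 13 genes, of mt-Atp8 over 43 of its 204 bases. The 5 tRNA genes in the stretch (mt-Ts1, mt-Td, mt-Tk, mt-Tg and mt-Tr) lie between the annotated pseudogenes, and the chromosome 1 bases opposite them were not analysed here. Of the 7 pseudogenes, 5 were identical to the matched part of the mitochondrial gene. Gm29216 differed from mt-Co1 by A1066T, and Gm28438 differed from mt-Nd3 by T3C, with positions counted from the first base of the mitochondrial gene. The copy also held 1 base more than the mitochondrial genome between the mt-Nd3 and mt-Nd4l matches (74 against 73 bases), an interval that contains mt-Tr. The first 60 bases of mt-Nd3 (chrM:9459-9518, plus strand) and of its copy (chr1:24613060-24613119, minus strand) are shown because a single letter, in capitals, separates them and Gm28438 differs between genotypes in its counts. The 2 tRNA genes beside mt-Nd3, whole, are shown because they are the only members that passed any comparison: mt-Tg (chrM:9391-9458), with the anticodon in capitals, and mt-Tr (chrM:9808-9875), with a run of 8 A in capitals. That run is known to differ in length between common inbred strains of mice.
mt-Nd3: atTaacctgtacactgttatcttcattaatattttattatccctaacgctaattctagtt
Gm28438: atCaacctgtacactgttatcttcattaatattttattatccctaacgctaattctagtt
mt-Tg: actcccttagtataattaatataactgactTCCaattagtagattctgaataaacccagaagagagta
mt-Tr: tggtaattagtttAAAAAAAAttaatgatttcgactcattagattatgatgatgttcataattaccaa

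Protein genes that touch the nuclear copy stood far above those outside it, in FPKM. The 8 protein genes that touch the copy had mean levels of 1224 to 7244 FPKM over the 19 libraries, with a median of 3253. The 5 protein genes outside it had 149 to 271 FPKM, with a median of 162. No mean of one class lay within the range of the other. Complex I shows this within 1 complex, because mt-Nd4l (2151 FPKM), mt-Nd4 (2023 FPKM) and mt-Nd3 (1224 FPKM) touch the copy and mt-Nd2 (271 FPKM), mt-Nd5 (162 FPKM), mt-Nd6 (160 FPKM) and mt-Nd1 (149 FPKM) do not. The ATP synthase genes mt-Atp6 and mt-Atp8 averaged 7244 and 3278 FPKM, and the complex IV genes mt-Co2, mt-Co3 and mt-Co1 averaged 5907, 5108 and 3228 FPKM. mt-Cytb, the complex III subunit, averaged 162 FPKM. By mean FPKM over all symbols, mt-Atp6 was at rank 3, mt-Co2 at rank 5 and mt-Co3 at rank 7. The sources used here do not say how fragments that match both genomes were assigned, and the part of that assignment in these levels was not tested.

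**Figure D1:**
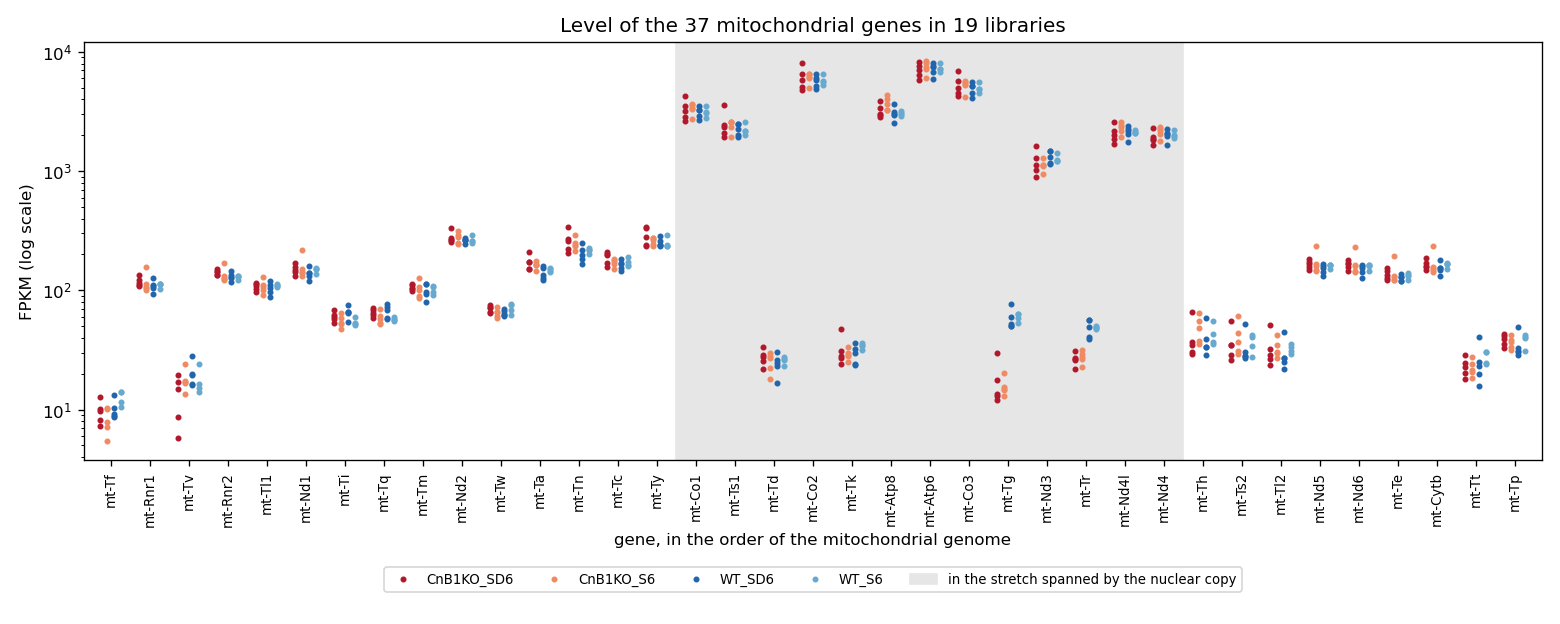
FPKM (log axis) of the 37 mitochondrial genes in genome order, 1 point per library, coloured by group, with the 13 genes in the stretch spanned by the nuclear copy on chromosome 1 shaded. The 8 shaded protein genes average 1224 to 7244 FPKM and the 5 others 149 to 271, and only mt-Tg and mt-Tr separate by genotype in both sleep states.

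mt-Co3 over mt-Co2, neighbours in the order of levels and not on the genome, was nearly fixed at 0.866 (median) in FPKM. It ranged from 0.849 to 0.892 over 19 libraries. mt-Co1 over mt-Co2 was 0.527 to 0.561. mt-Nd6, the only protein gene of the light strand, had 0.961 to 1.01 times the FPKM of mt-Nd5, which it overlaps at its 3′ end on the other strand. Without strand information, reads from the bases that overlapping genes share cannot be told apart. Here that part is short, as mt-Nd5 spans chrM:11742-13565 and mt-Nd6 chrM:13552-14070. In the order of levels, mt-Cytb, mt-Nd5 and mt-Nd6 are neighbours that do not differ beyond their spread (133 to 235, 133 to 233 and 128 to 230 FPKM). Median counts per base were 0.961 for mt-Nd6 and 1.13 for mt-Nd5. Counts of mt-Cytb, mt-Nd5 and mt-Nd6 rose little with the library total. Their order and the ratio of mt-Nd6 to mt-Nd5 therefore say little about amounts of RNA.

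Pseudogenes that match a whole mitochondrial gene had FPKM close to those of that gene. mt-Co2 over Gm28661 was 0.980 to 1.01 in the 19 libraries, mt-Co3 over Gm28437 was 0.993 to 1.01, and mt-Nd3 over Gm28438 was 0.965 to 1.04. mt-Co1 had 0.369 (mean) times the FPKM of Gm29216, which matches 31.3% of the length of mt-Co1. mt-Nd4 had 0.657 times the FPKM of Gm28439, which matches 63.6% of its length. Together the mt- symbols took 7.97 to 10.3% of the summed FPKM of all symbols on 1 line, the 7 pseudogenes took 7.37 to 10.1%, and the 24 mt- symbols outside the copy took 0.641 to 0.877%.

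The rRNAs, the bulk of mitochondrial RNA in total RNA, were moderate in FPKM in these poly(A) libraries. Median counts per base were 0.809 for mt-Rnr1 and 0.826 for mt-Rnr2, beside 0.961 to 1.14 for the 5 protein genes outside the copy. All these counts rose little with the library total, so the level says little about the amount of rRNA. The part of poly(A) selection in it was not tested. mt-Rnr1 (12S rRNA) had 116, 109, 111, 123 and 134 FPKM in CnB1KO_SD6 and 105, 113, 158, 102 and 107 FPKM in CnB1KO_S6, against 110, 104, 109, 127 and 93.5 FPKM in WT_SD6 and 112, 112, 104 and 114 FPKM in WT_S6. mt-Rnr2 (16S rRNA) averaged 134 FPKM, with a range of 116 to 168. The 22 tRNAs ranged from 9.93 FPKM for mt-Tf (tRNA for phenylalanine) to 2341 FPKM for mt-Ts1 (a serine tRNA inside the copy that overlaps the end of mt-Co1 on the other strand). After mt-Ts1 the highest were mt-Ty (263), mt-Tn (232), mt-Tc (173) and mt-Ta (156 FPKM), a cluster of light-strand tRNAs that lies between mt-Nd2 and mt-Co1. The remaining 17 tRNAs averaged 134 FPKM or less, from mt-Te (134) and mt-Tl1 (107) down to mt-Tf. Mature tRNAs are short and lack the poly(A) tails of mRNAs, so an FPKM over a tRNA gene need not come from the mature tRNA.

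In the count table, mitochondrial genes had about 1 count per base and varied little between libraries. All 10 members with counts have bases outside the copy: mt-Nd1, mt-Nd2, mt-Nd5, mt-Nd6, mt-Cytb, mt-Rnr1, mt-Rnr2 and mt-Tp lie outside it, and mt-Co1 and mt-Nd4 lie in part outside it. None of the 11 genes that lie entirely in the copy had counts, and 16 of the 17 tRNAs outside it had none either. mt-Nd1, a complex I subunit of 957 bases, had 906, 943, 974, 907 and 873 counts in CnB1KO_SD6 and 972, 964, 850, 958 and 932 counts in CnB1KO_S6, against 952, 943, 932, 909 and 964 counts in WT_SD6 and 969, 984, 980 and 995 counts in WT_S6. The 19 values span 850 to 995, and the groups overlap. mt-Nd2 (1038 bases) had 899 to 1038 counts, mt-Nd5 (1824 bases) 1800 to 2236, and mt-Cytb (1144 bases) 1142 to 1373. For mt-Co1 the median of 1091 counts stands beside 1062 bases outside the copy. Per base outside the copy the medians of the 10 members ran from 0.642 for mt-Tp to 1.30 for mt-Nd4.

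Library totals differed by 2.03 times, while the highest count of these members exceeded the lowest by 1.14 times for mt-Co1 to 1.33 times for mt-Tp. The slope of the log2 count on the log2 total was 0.146 to 0.351 for the 10 members, and the median over all 14443 genes was 1.14. The FPKM of a number of members outside the copy moved against depth. FPKM divide by the mapped total of the library, so counts that hardly rise with depth give a negative relation by arithmetic. For mt-Nd1 the slope on the log2 total was 0.221 for log2 counts and −0.796 for log2 FPKM. Where a member has counts, the p-values below restate its flat counts and are not separate evidence. For mt-Nd1 Pearson's r between log2 FPKM and log2 total was −0.98 and Spearman's rho −0.95 (19 libraries, permutation test, adjusted p = 4.37e-05 and 8.75e-05, from the smallest p of 1e-05 that 100000 permutations can give). It was −0.95 without libraries 13 and 20, whose totals lie farthest from the median. This was 1 of 35 such relations, with mt-Tg and mt-Tr left out because their libraries split by genotype. Of the 24 members outside the copy, 9 had a negative relation with an adjusted p under 0.05 by Pearson's r: mt-Rnr1, mt-Rnr2, mt-Tl1, mt-Nd1, mt-Tm, mt-Nd5, mt-Nd6, mt-Te and mt-Cytb. The other 15 outside the copy did not pass, and r was positive for 4 of them (mt-Tv 0.50, mt-Ty 0.28, mt-Tt 0.28 and mt-Tn 0.06). Of the 11 members tested that touch the copy, 6 had a positive one, the highest for mt-Atp6 (r = 0.64, adjusted p = 0.00710), and none of these passed by Spearman's rho. For mt-Atp6 the r without libraries 13 and 20 was 0.43. Because of this relation, group differences were also fitted with the log2 total as a covariate, an alternative added after seeing the data.

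**Figure D2:**
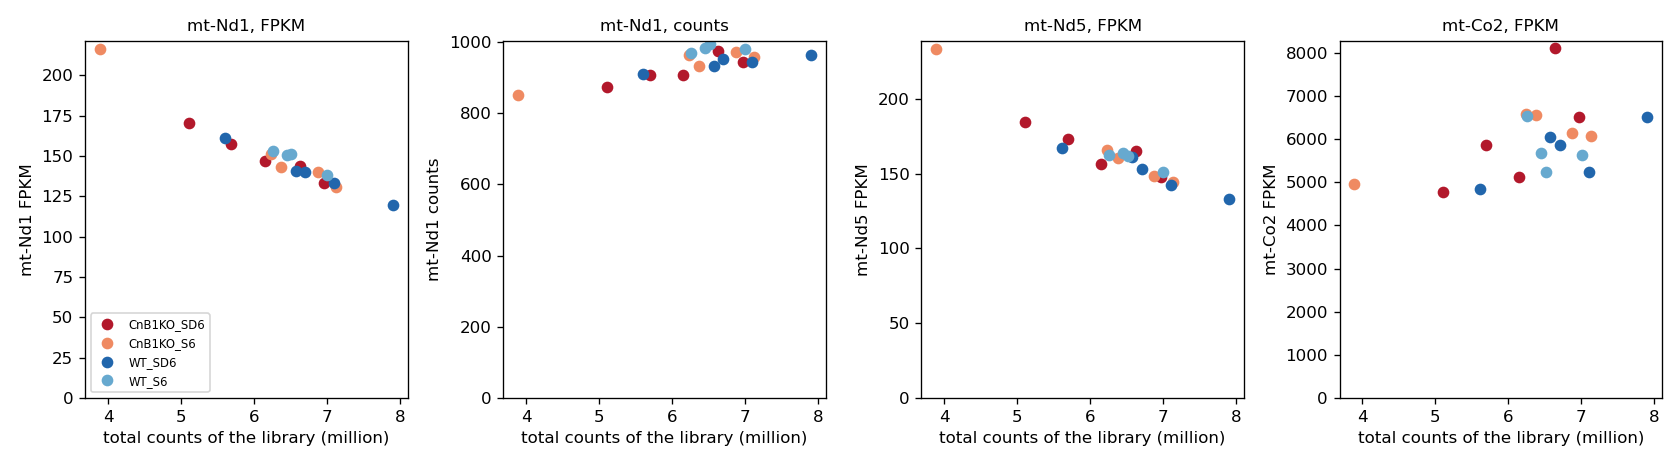
FPKM and counts of mt-Nd1, FPKM of mt-Nd5 and FPKM of mt-Co2 against the total counts of the library, 1 point per library, coloured by group. mt-Nd1 counts stay between 850 and 995 while its FPKM falls as the total rises, and mt-Co2, which lies inside the copy, shows no such fall.

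Between genotypes the FPKM over 2 mitochondrial tRNA genes differed past the test, and that of no mRNA or rRNA did. mt-Tg, the glycine tRNA between mt-Co3 and mt-Nd3, had 17.8, 13.5, 30, 12.1 and 13 FPKM in CnB1KO_SD6 and 15.3, 20.2, 13.1, 14.8 and 14.6 FPKM in CnB1KO_S6, against 52.3, 50.1, 77.5, 50.1 and 59.9 FPKM in WT_SD6 and 58.7, 63.4, 53.7 and 63.1 FPKM in WT_S6. The highest CnB1KO library, number 18, lay below every WT library. By limma on log2(FPKM + 0.5), which understates changes of low genes, mt-Tg was lower in CnB1KO after deprivation (log2 difference −1.78, 95% confidence interval −2.18 to −1.39, adjusted p = 0.00018) and after sleep (−1.92, −2.34 to −1.50, adjusted p = 7.29e-05). mt-Tr, the arginine tRNA on the other side of mt-Nd3, had 21.8, 27.2, 30.8, 26.2 and 26.4 FPKM in CnB1KO_SD6 and 27.3, 31.8, 22.8, 29.1 and 26.6 FPKM in CnB1KO_S6, against 56.8, 40.8, 56.1, 39.2 and 49.3 FPKM in WT_SD6 and 47.4, 49, 49.8 and 48.5 FPKM in WT_S6. Again no CnB1KO library reached the WT range. mt-Tr was lower in CnB1KO after deprivation (log2 difference −0.85, −1.07 to −0.63, adjusted p = 0.000659) and after sleep (−0.82, −1.05 to −0.58, adjusted p = 0.00331). When only the 2 deprived groups were fitted, the adjusted p of mt-Tr was 0.0551.

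These 2 of 37 members stand beside a background of 0.0406% of 19686 tested symbols after deprivation, 0.0457% after sleep and 0.635% averaged over sleep states. Averaged over sleep states, mt-Tg differed by −1.85 (adjusted p = 4.11e-07) and mt-Tr by −0.83 (adjusted p = 8.01e-06). Relative to the tRNA mt-Td, which lies in the same stretch, mt-Tg stood at 0.420 to 0.896 in CnB1KO libraries and 1.95 to 2.99 in WT libraries. mt-Tg and mt-Tr have no counts in the deposited table, so no count test was made for them. Marker genes moved with genotype too: Ermn of 12 oligodendrocyte markers and Cldn5 and Flt1 of 8 endothelial markers were higher in CnB1KO averaged over sleep states by FPKM. By counts edgeR passed 5 of 8 endothelial, 3 of 12 oligodendrocyte and 2 of 12 microglial markers in that comparison. There 3.09% of all genes passed by counts. At an unadjusted p under 0.05 limma gave 7, 10 and 4, and the share of all symbols at that level is not given here. None of 10 noradrenergic or 10 general neuronal markers passed (0 and 3 at an unadjusted p under 0.05 by limma, and 0 passing by edgeR). Summed endothelial markers were at 148 to 197 FPKM in CnB1KO_SD6 and 148 to 179 in CnB1KO_S6, against 131 to 164 in WT_SD6 and 118 to 141 in WT_S6. Their part in the tRNA difference was not tested.

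**Figure D3:**
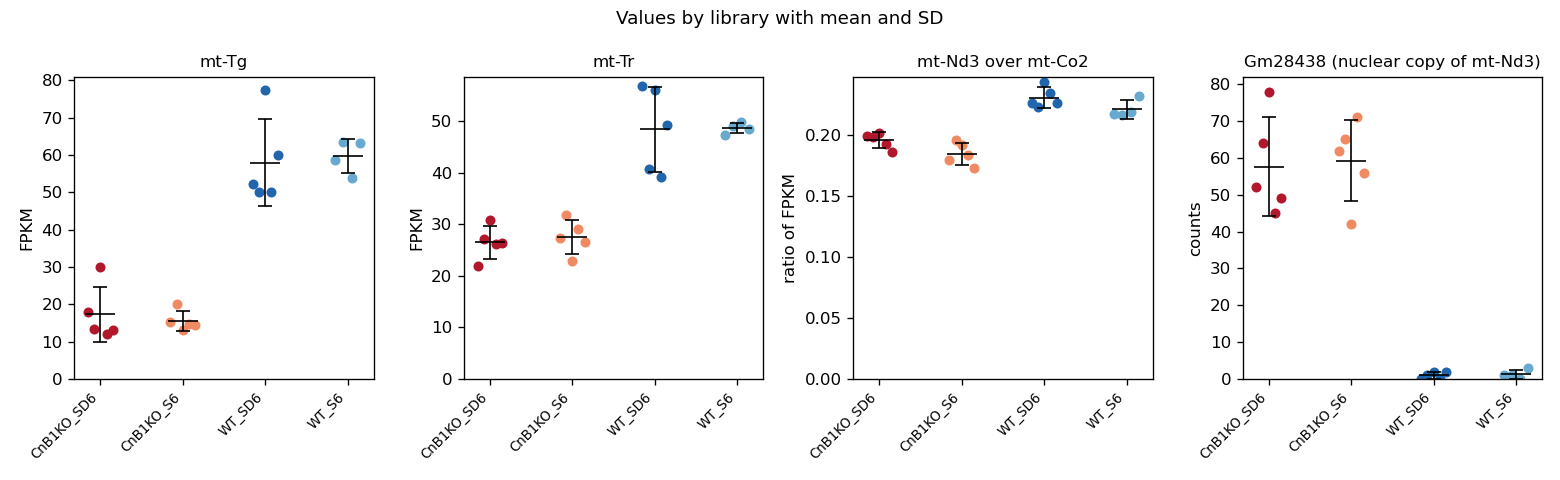
FPKM of mt-Tg and mt-Tr, FPKM ratio of mt-Nd3 over mt-Co2 and counts of Gm28438, 1 point per library in each group, with the mean (bar) and SD (whiskers). In each panel no CnB1KO library falls within the range of the WT libraries.

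mt-Nd3, the complex I subunit between these tRNAs, had 1023, 1294, 1638, 1129 and 890 FPKM in CnB1KO_SD6 and 1103, 1287, 950, 1119 and 1138 FPKM in CnB1KO_S6, against 1326, 1168, 1478, 1139 and 1474 FPKM in WT_SD6 and 1420, 1228, 1234 and 1218 FPKM in WT_S6. The groups overlap, and the difference averaged over sleep states did not pass (log2 difference −0.18, −0.38 to 0.03, adjusted p = 0.342). Set against mt-Co2 in the same library, mt-Nd3 was at 0.186 to 0.202 in CnB1KO_SD6 and 0.173 to 0.196 in CnB1KO_S6, against 0.223 to 0.244 in WT_SD6 and 0.217 to 0.232 in WT_S6, so these ranges do not overlap between genotypes. This ratio was chosen after the values were seen and was not tested. mt-Co3, on the far side of mt-Tg, stood at 0.849 to 0.892 of mt-Co2 in CnB1KO and 0.850 to 0.878 in WT.

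The nuclear copy of mt-Nd3 differed by genotype in its counts and not in its FPKM. Gm28438 had 52, 64, 78, 45 and 49 counts in CnB1KO_SD6 and 62, 65, 42, 71 and 56 counts in CnB1KO_S6, against 0, 1, 2, 0 and 2 counts in WT_SD6 and 1, 1, 0 and 3 counts in WT_S6. The 10 CnB1KO libraries summed to 584 counts and the 9 WT libraries to 10. By edgeR's quasi-likelihood test it was higher in CnB1KO after deprivation (adjusted p = 9.28e-09) and after sleep (adjusted p = 5.37e-08). In FPKM Gm28438 followed mt-Nd3, with a log2 difference of −0.16 averaged over sleep states (adjusted p = 0.410). mt-Tg, mt-Tr, the first letters of mt-Nd3 and Gm28438 lie within a short part of the stretch. There the compared reference bases differ by T3C, the interval that contains mt-Tr differs by 1 base in length, and the bases of the copy opposite mt-Tg and mt-Tr were not compared. The sources used here do not say whether CnB1KO and WT mice carry the same mitochondrial sequence, and its part in these differences was not tested.

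The other 35 members did not pass in any genotype comparison, and their smallest adjusted p was 0.230 after deprivation, 0.391 after sleep and 0.1 averaged over sleep states. In libraries that do not overlap between genotypes, 2 members were lower after deprivation (mt-Tg and mt-Tr, where 1.72% of tested symbols do not overlap) and 3 were lower after sleep (mt-Tf, mt-Tg and mt-Tr) with 1 higher (mt-Atp8, where 3.62% do not overlap). By CPM of the 10 members with counts, libraries of the 2 genotypes separated for none after deprivation (2.05% of genes do) or after sleep (4.32%). mt-Atp8, a small subunit of ATP synthase, had 3648, 4354, 3270, 3249 and 4072 FPKM in CnB1KO_S6 and 3181, 3028, 3079 and 2913 FPKM in WT_S6 (log2 difference 0.28, −0.01 to 0.57, adjusted p = 0.601). After deprivation it had 3048, 3866, 2839, 3418 and 2967 FPKM in CnB1KO_SD6 and 3120, 2952, 3030, 2552 and 3696 FPKM in WT_SD6, and these overlap. mt-Tf had 7.2, 10.3, 10, 5.41 and 7.81 FPKM in CnB1KO_S6 and 11.5, 13.9, 10.4 and 13.9 FPKM in WT_S6 (log2 difference −0.60, −0.97 to −0.23, adjusted p = 0.391). Among light-strand tRNAs, mt-Ta (alanine) and mt-Tn (asparagine) had log2 differences of 0.21 (adjusted p = 0.1) and 0.27 (adjusted p = 0.125) averaged over sleep states.

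For the protein genes the intervals limit how large a missed difference in FPKM could be. Counts of those outside the copy rose little with the library total, so their intervals need not bound a change in the amount of RNA. Averaged over sleep states, the 95% intervals of the 5 protein genes outside the copy lay between −0.11 and 0.26 on the log2 scale, and those of the 8 that touch it between −0.38 and 0.37. The 2 rRNAs had log2 differences of 0.09 and 0.10 (adjusted p of at least 0.375). Over all 37 members, 26 had a positive difference and 11 a negative one, with a median of 0.07, while the median of all symbols was 0.00 and 48.8% of them were positive. With the log2 total as a covariate 19 of 37 were positive and the median was 0.01.

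By counts 0 of the 10 members passed for genotype (edgeR, 0 at an unadjusted p under 0.05 in either sleep state or averaged, and 0 passing by DESeq2 or limma voom, while 0.132% of genes passed after deprivation, 0.0485% after sleep and 3.09% averaged). All 10 had a positive difference averaged over sleep states, with a median of 0.11. With the log2 total as a covariate 2 of 10 were positive, with a median of −0.02, so the direction did not hold once depth was in the fit. Without libraries 13 and 18 all 10 stayed positive averaged over sleep states, with a median of 0.04, but after sleep 1 of 10 was positive (median −0.05), against 10 of 10 with all libraries (median 0.10).

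**Figure D4:**
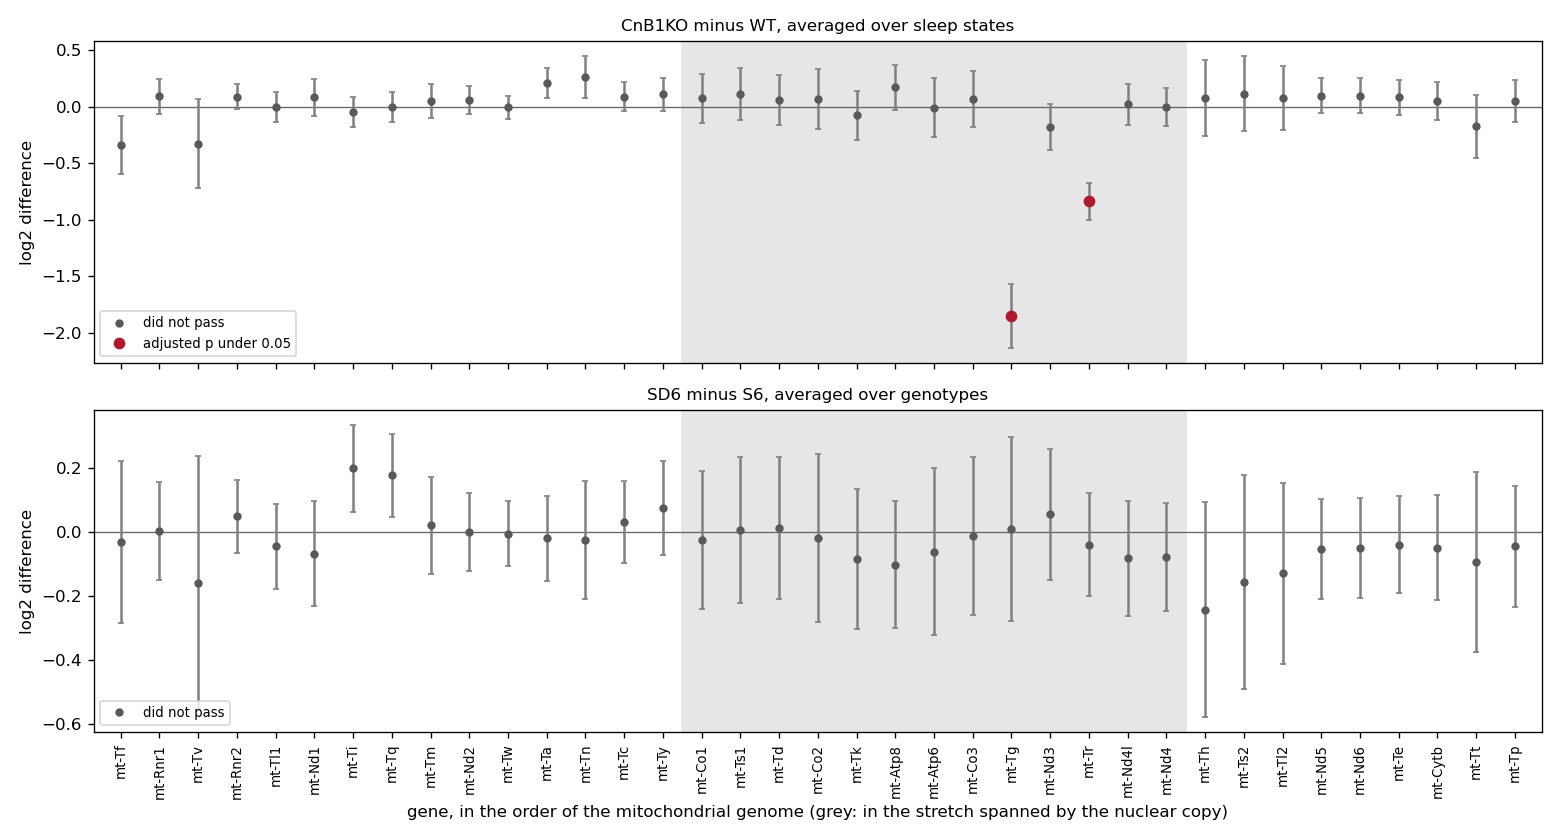
Log2 difference of each mitochondrial gene by limma on log2(FPKM + 0.5), with 95% confidence intervals, for CnB1KO minus WT averaged over sleep states (top) and SD6 minus S6 averaged over genotypes (bottom), genes in genome order. Red points have an adjusted p under 0.05 over all 19686 symbols: mt-Tg (−1.85) and mt-Tr (−0.83) in the upper panel and none in the lower.

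Sleep deprivation of 6 h changed no mitochondrial transcript past the test. In FPKM 0 of 37 members passed in CnB1KO (background 0.345% of symbols), in WT (0.284%) or averaged over genotypes (2.04%). At an unadjusted p under 0.05 there were 0 members in CnB1KO, 2 in WT and 2 averaged over genotypes by limma. The share of all symbols at that unadjusted level is not given here. In WT and averaged over genotypes the 2 members were mt-Ti (isoleucine) and mt-Tq (glutamine), which lie side by side on opposite strands after mt-Nd1. mt-Ti had 57.1, 60, 69, 52.7 and 62 FPKM in CnB1KO_SD6 and 64.7, 66.2, 75.3, 66.3 and 54.1 FPKM in WT_SD6, against 58.9, 52.8, 64.2, 47 and 52.5 FPKM in CnB1KO_S6 and 59.4, 52.1, 51.2 and 52.9 FPKM in WT_S6. The deprived and slept libraries overlap in both genotypes, and the averaged log2 difference was 0.20 (0.06 to 0.33, adjusted p = 0.133). For mt-Tq it was 0.18 (0.05 to 0.31, adjusted p = 0.169). No member separated deprived from slept libraries by FPKM in CnB1KO (2% of symbols do) or in WT (4.12%), or by CPM of counts in CnB1KO (2.66% of genes) or in WT (5.21%).

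In FPKM, no mRNA or rRNA differed past the test between sleep states. mt-Co2, a catalytic subunit of complex IV, had 5119, 6502, 8099, 5853 and 4776 FPKM in CnB1KO_SD6 and 6147, 6570, 4949, 6080 and 6565 FPKM in CnB1KO_S6, and 5852, 5231, 6052, 4851 and 6503 FPKM in WT_SD6 against 6535, 5671, 5639 and 5241 FPKM in WT_S6. Its averaged log2 difference was −0.02 (−0.28 to 0.24, adjusted p = 0.973), which covers changes in either direction of the size of the spread between libraries. mt-Nd1 differed by −0.07 (−0.23 to 0.10), mt-Nd2 by 0.00 (−0.12 to 0.12) and mt-Rnr2 by 0.05 (−0.07 to 0.16). Counts of mt-Nd1, mt-Nd2 and mt-Rnr2 rose little with the library total, so their intervals need not bound a change in the amount of RNA. mt-Tg and mt-Tr did not pass with deprivation either, with averaged log2 differences of 0.01 (−0.28 to 0.30) and −0.04 (−0.20 to 0.12).

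By counts 0 of 10 members passed with deprivation, with a background of 0.692% in CnB1KO, 1.14% in WT and 4.69% averaged over genotypes. None had an unadjusted p under 0.05 by edgeR, and DESeq2 and limma voom also passed 0 of 10. In WT all 10 had a negative log2 difference, with a median of −0.08, and in CnB1KO 7 of 10 were negative, with a median of −0.05. Without libraries 13 and 18 all 10 were positive in CnB1KO, with a median of 0.13, so that direction rests on those libraries. Averaged over genotypes, 10 of 10 were negative (median −0.07), and without libraries 13 and 18 none was (median 0.02).

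The response to deprivation was not shown to differ between genotypes for any member. The interaction of deprivation and genotype passed for 0 of 37 members by FPKM and 0 of 10 by counts, with a background of 0% in each table. At an unadjusted p under 0.05 limma gave 2 members and edgeR none, and the share of all symbols at that level is not given here.

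Library 18, a CnB1KO_SD6 library of ordinary depth (6632151 counts), stood apart in the balance among mitochondrial mRNAs. It had the highest FPKM of the 19 libraries for mt-Co2 (8099) and mt-Co3 (6876) and a low one for mt-Nd4l (1706). mt-Atp8 over mt-Co2 was 0.351 in it and 0.487 to 0.663 in the other 18 libraries. mt-Nd4l over mt-Co2 was 0.211 against 0.336 to 0.399, mt-Nd4 over mt-Co2 was 0.231 against 0.333 to 0.378, and mt-Atp6 over mt-Co2 was 0.939 against 1.19 to 1.31. mt-Co3 over mt-Co2, at 0.849, lay beside the others (0.850 to 0.892). The low FPKM ratios belong to the 2 bicistronic mRNAs, mt-Atp8 with mt-Atp6 and mt-Nd4l with mt-Nd4, whose reading frames overlap. By counts, which mt-Atp8, mt-Atp6 and mt-Nd4l lack, mt-Nd4 was not low. No library exceeded the 727 mt-Nd4 counts of library 18. Library 18 also had the highest summed FPKM of the 19 libraries for ependymal and choroid plexus markers (163, with at most 93.0 in the others) and for blood markers (1433, with at most 1224), and their part in these ratios was not tested. Without libraries 13 and 18, mt-Tg and mt-Tr still passed in both sleep states.

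**Figure D5:**
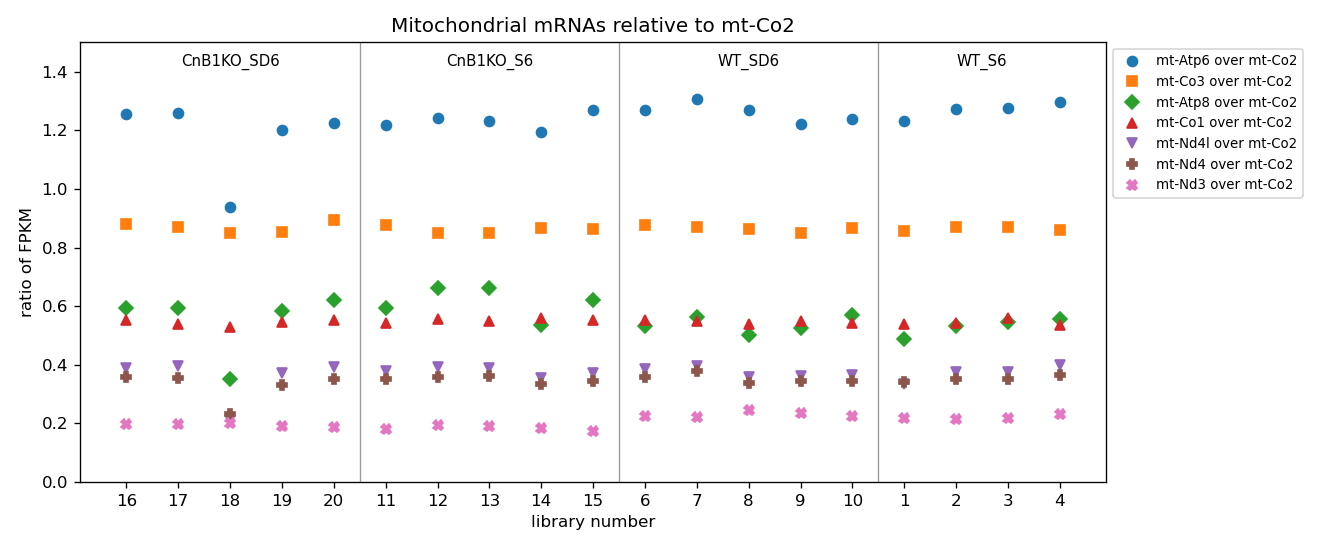
Ratio of the FPKM of 7 mitochondrial mRNAs to that of mt-Co2 in each of the 19 libraries, ordered by group. Library 18 is low for mt-Atp6 (0.939), mt-Atp8 (0.351), mt-Nd4l (0.211) and mt-Nd4 (0.231), and mt-Nd3 over mt-Co2 is lower in every CnB1KO library than in every WT library.

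Few of the nuclear genes that serve the mitochondrial genome passed with deprivation, in a comparison where 2.04% of all symbols passed by FPKM and 4.69% of all genes by counts. Averaged over genotypes, 1 of 17 genes of mitochondrial transcription and replication rose by FPKM (Mgme1, an exonuclease that trims mitochondrial DNA ends, log2 difference 0.32, limma adjusted p = 0.0353). Of 33 genes of mitochondrial RNA processing and stability 1 rose (Ptcd2, a protein linked to processing of the mt-Cytb transcript, 0.15, adjusted p = 0.0489), and of 15 translation factors 1 rose (Tufm, the elongation factor that brings tRNAs to the ribosome, 0.12, adjusted p = 0.0191). Chac1, which degrades glutathione, rose among 16 stress genes (0.26, adjusted p = 0.0391). Medians of these lists were 0.03, 0.04, 0.02 and 0.04 on the log2 scale, beside 0.00 for all symbols. None of these lists had a passing member by FPKM or counts within CnB1KO or WT alone. By counts Tufm did not pass (edgeR adjusted p = 0.134), while Primpol, a primase and polymerase, fell (−0.34, adjusted p = 0.021).

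Nuclear subunits that assemble with the mitochondrially encoded ones gave 0 passing genes by FPKM in every comparison, of 39 tested for complex I, 9 for complex III, 16 for complex IV and 16 for complex V. With deprivation averaged over genotypes, 4 of these 80 had an unadjusted p under 0.05 by limma, and the share of all symbols at that level is not given here. By counts 2 of 78 subunits rose in that comparison, where 4.69% of all genes passed: Ndufb2 of complex I (log2 difference 0.32, edgeR adjusted p = 3.77e-05) and Atp5g1, a ring subunit of ATP synthase (0.25, adjusted p = 0.0036), with FPKM differences of 0.19 and 0.06. Ndufb2 also rose by counts within CnB1KO (0.26, adjusted p = 0.0147) and within WT (0.37, adjusted p = 0.00151).

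With genotype, averaged over sleep states, the nuclear subunits leaned to higher levels in CnB1KO without any passing. Positive log2 differences were seen in 37 of 39 complex I genes (median 0.10), 9 of 9 complex III genes (0.07), 15 of 16 complex IV genes (0.14) and 16 of 16 complex V genes (0.12), beside 48.8% of all symbols. Of these 80 genes, 36 had an unadjusted p under 0.05 by limma. By edgeR 23 of 78 did, and 0 passed by limma or edgeR. The share of all symbols at that unadjusted level is not given here. At that level limma gave 0 of 10 noradrenergic and 7 of 8 endothelial markers. By sign, 10 of 10 noradrenergic, 8 of 8 endothelial, 12 of 12 oligodendrocyte and 12 of 12 microglial markers were positive in the same comparison. A positive lean was thus not particular to these subunits. Of granule cell markers 0 of 10 were positive, of Purkinje cell markers 1 of 6, and of serotonergic and cholinergic markers 0 of 3 each. Complex II, which has no mitochondrially encoded subunit, had 4 of 4 positive (median 0.07). The 5 mitochondrial protein genes outside the copy had a median of 0.08 in the same comparison, and none of these medians was tested. With the log2 total as a covariate the median of the 37 mitochondrial members was 0.01, and no such fit is given here for the nuclear subunits. Of 13 biogenesis genes 1 passed by FPKM and 3 by counts, where 0.635% of all symbols and 3.09% of all genes passed. Sirt3, a mitochondrial deacetylase, was higher in CnB1KO by FPKM (0.28, limma adjusted p = 0.00676) and counts (0.24, edgeR adjusted p = 0.0116). By counts alone Ppargc1a, a coactivator that drives mitochondrial biogenesis, was higher (0.17, adjusted p = 0.0176) and Gabpb1, a subunit of nuclear respiratory factor 2, was lower (−0.22, adjusted p = 0.0397). Tufm was higher by FPKM (0.11, adjusted p = 0.0487), and Mtrf1, a mitochondrial release factor, was lower by counts (−0.33, adjusted p = 0.0359).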

How the data were processed

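Poly(A) RNA of 19 libraries was sequenced, per the labels' protocols. The authors deposited raw counts per gene in 1 table, per the file headers, in which the lowest gene total is 381. They also deposited FPKM in 4 tables, 1 per group, per the file headers, and FPKM were compared across these tables as deposited. The 19 TPM columns were not used. The submitters' processing notes name StringTie 2.2.1 and HTSeq 2.0.4 beside GRCm38, without their roles, and also SAMtools 1.6, Picard 2.18.29, Trim Galore 0.6.10 and FastQC 0.12.1. The sources used here name no aligner and no rule for reads with several matches or for duplicates.

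The 153 symbols on several lines were left out, and those on 1 line in each table with a mean FPKM of at least 0.5 (19686) were tested as log2(FPKM + 0.5) with limma 3.58.1 (trend, 2-sided). The 14443 count genes were tested with edgeR 4.0.16 (quasi-likelihood, TMM scaling, filterByExpr, which removed none) in R 4.3.3. Each fit held the 4 groups and 19 libraries, without covariates, and gave 7 comparisons. The threshold for passing was 0.05 after adjusting p-values by Benjamini and Hochberg over every gene of the table. Both scripts were tested on simulated data. Nuclear matches came from BLAST 2.17.0 of mitochondrial genes against GENCODE M21 transcripts (identity of at least 90%). Alternatives were other pseudocounts, filters, scalings, DESeq2 1.42.0, limma voom, 2-group fits, each library left out and, added after seeing the data, the log2 total as a covariate, leaving out libraries 13 and 18, and FPKM rescaled to an equal sum. Every mt- symbol is accounted for, and tRNAs were named by level, test or overlap. The members and gene lists were chosen with earlier results of these data known. Total counts were 3887298 to 7903253, and p-values measure the spread between these libraries, which the labels call biological replicates. The labels name no batch.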

Additional observations from a re-analysis of the deposited data

Results flagged for a closer look

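Of 188 sets of values (each member's FPKM or counts in each group of 4 or 5 libraries), 24 had a library far from the others by Dixon's test at the 95% level. Chance flags about 1 in 20 sets, and genes of 1 library are not independent.

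Library 13, the shallowest library (CnB1KO_S6, 3887298 counts), gave 13 of them. Its FPKM was the highest of the group for mt-Cytb (235, with 143 to 156 in the others), mt-Nd5 (233, with 145 to 166), mt-Nd6 (230, with 144 to 163), mt-Nd1 (216, with 131 to 151), mt-Te (195, with 121 to 133), mt-Rnr2 (168, with 122 to 132) and mt-Rnr1 (158, with 102 to 113). These 7 genes lie outside the nuclear copy. For mt-Co3, inside it, library 13 was the lowest (4210 FPKM, with 5272 to 5679). Its counts were the lowest of the group for mt-Nd5 (1800), mt-Rnr2 (1060), mt-Nd2 (899), mt-Nd6 (428) and mt-Tp (37).

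Library 18 (CnB1KO_SD6) was the highest of its group for mt-Nd2 (337 FPKM, with 254 to 273 in the others), mt-Th (65.6 FPKM, with 29.4 to 36.9) and mt-Nd4 (727 counts, with 591 to 628). Library 8 (WT_SD6) was the highest for mt-Ts2 (52.3 FPKM, with 26.9 to 30.4), mt-Tp (49.0 FPKM, with 28.9 to 33.0) and mt-Tl2 (44.5 FPKM, with 21.8 to 27.2). mt-Th, mt-Ts2 and mt-Tl2 are adjacent tRNA genes between mt-Nd4 and mt-Nd5. Library 1 (WT_S6) was the highest for mt-Nd3 (1420 FPKM, with 1218 to 1234) and mt-Ty (289 FPKM, with 235 to 238). Library 3 (WT_S6) was the lowest for mt-Cytb (152 FPKM, with 166 to 168) and mt-Nd6 (146 FPKM, with 161 to 162), and library 9 (WT_SD6) was the lowest for mt-Nd2 (952 counts, with 1000 to 1014).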

How the results depend on the processing

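The number of mitochondrial genes that passed was the same under every alternative run, for each of the 7 comparisons by FPKM and by counts, with 1 exception: CnB1KO against WT after deprivation gave 1 gene (mt-Tg) in place of 2 by FPKM when only the 2 groups compared were fitted. The log2 difference of mt-Tr was then −0.85 with an adjusted p of 0.0551. Of 9190 values of single members under alternatives, 9189 kept their side of the threshold and 622 changed sign, all of them for differences that did not pass. mt-Tg ranged from −2.01 to −1.86 after sleep and from −2.0 to −1.67 after deprivation over its alternatives, with adjusted p of at most 0.000757 and 0.0413. mt-Tr ranged from −0.87 to −0.76 and from −0.92 to −0.78. Its adjusted p was at most 0.0229 after sleep. The number of all genes that passed, given as background, moved more. For CnB1KO against WT after deprivation it was 19 by counts with edgeR, 95 with DESeq2, 4 with only the 2 groups and 7 to 220 with 1 library left out, and 8 by FPKM with 2 and 5 to 46 in the last 2 settings. After sleep it was 7 by counts (13 with DESeq2, 19 with the covariate, 3 to 8 with 1 library left out) and 9 by FPKM (4 to 12). Averaged over sleep states it was 447 by counts (682 with DESeq2, 155 without libraries 13 and 18, 76 to 1088) and 125 by FPKM (206 with the covariate, 74 without a filter, 55 without libraries 13 and 18, 22 to 542). With deprivation it was 165 in WT by counts (35 with only the 2 groups, 78 to 176) and 56 by FPKM (19, 25 to 71), and 100 in CnB1KO by counts (160 with DESeq2, 46 without libraries 13 and 18, 54 to 134) and 68 by FPKM (36, 41 to 77). The TPM columns planned as an alternative were not run. No paired analysis was possible because the columns carry serial numbers and not the replicate numbers of the sample titles. For the 10 members with counts, counts rose little with depth. For 9 of the 24 members outside the copy FPKM fell as the library total rose. Both limit the detection of differences in the amount of RNA. For the 11 members that lie entirely in the copy no counts were analysed here.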

Other observations

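Gm13340, another nuclear copy of mt-Co1 (chromosome 2, 97.6% identity over the whole gene), was higher in CnB1KO by counts averaged over sleep states (log2 difference 0.55, edgeR adjusted p = 0.0122) and did not pass by FPKM (0.08, limma adjusted p = 0.618). mt-Co1 itself did not pass by either measure. In all, 15 of the 37 members had a match of at least 90% identity to an annotated nuclear transcript.

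Cerebellar granule cell markers summed to 69.2 to 329 FPKM in CnB1KO_SD6, 71.6 to 301 in CnB1KO_S6, 87.0 to 476 in WT_SD6 and 124 to 370 in WT_S6. All 10 had a negative difference between CnB1KO and WT after deprivation (median log2 difference −0.82), after sleep (−0.55) and averaged over sleep states (−0.66), while all 10 noradrenergic markers had a positive one (medians 0.23, 0.07 and 0.18). None of the 10 granule cell or 10 noradrenergic markers passed with genotype averaged over sleep states (limma and edgeR, with 1 and 0 at an unadjusted p under 0.05 by each). For that unadjusted level no share of all symbols is given here.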
